A study of Homo sapiens with 6 samples.

Results

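Hormone receptors and the transcription factors of luminal breast epithelium were described in MDA-MB-231 cells, an established human breast cancer cell line of the triple-negative kind. The 9 genes were the receptors ESR1, ESR2, PGR, NR3C1 and ESRRA, the luminal factors GATA3, FOXA1 and SPDEF, and the estrogen-induced gene TFF1. Every probe set annotated to a single one of these symbols was taken, which gave 35 of 54613 probe sets without controls. ESR1 had 9 probe sets, ESR2 6, NR3C1 and SPDEF 5 each, GATA3 3, PGR, ESRRA and FOXA1 2 each, and TFF1 1. Cells received either 50 µM of the compound coded TCI04 or phosphate-buffered saline (PBS), and total RNA was taken at 48 h. Each group held 3 Affymetrix arrays, 6 in all, and every array was of the same cell line grown in the same serum-containing medium. Whether separate cultures lie behind the arrays is not stated, and each p-value therefore reflects array-to-array spread, possibly technical.

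Estrogen receptors alpha (ESR1) and beta (ESR2) and the progesterone receptor (PGR) are transcription factors that a steroid hormone switches on. The glucocorticoid receptor (NR3C1) works in the same way with cortisol, while ESRRA, estrogen-related receptor alpha, has no known natural steroid ligand and drives genes of mitochondrial energy production. FOXA1 opens chromatin for ESR1, GATA3 and ESR1 maintain each other's transcription in luminal cells, SPDEF is an ETS factor of luminal and secretory epithelium, and TFF1 is a classical estrogen target. Triple-negative tumours are defined by the absence of ESR1 and PGR protein and of amplified ERBB2, the gene of the HER2 receptor.

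The values were MAS5 signals, which summarise the probes of a probe set on a linear scale. Probe sets differ in how well they bind, so a signal was compared only with the same probe set on other arrays, and its place among all signals served to say whether it lay in the low range. No detection calls were used here. To mark the low range, 94 probe sets of genes typical of other tissues, such as liver and muscle, were read on the same arrays. Their PBS signals had a median of 22.0 with quartiles at 10.3 and 49.4. The test across the table took the 32768 probe sets whose mean signal over the 6 arrays reached 37.0, the 40th percentile, and 31.9% of the probe sets of other tissues also reached it.

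The arrays shared a trimmed mean of 500.1, but their median signal was 64.0 to 74.3 with PBS and 58.9 to 59.8 with TCI04, every TCI04 median below every PBS median. TCI04 replicate 3 stood apart in RNA quality, with a 3' to 5' signal ratio of ACTB of 3.33 against 1.64 to 1.72 on the other 5 arrays. The cell line label was checked against markers. In PBS, the mesenchymal genes VIM and ZEB1 measured 30225 ± 1966 and 2648 ± 48.2 (SD, n = 3), and the epithelial cadherin CDH1 3.36 ± 1.69. Other markers went the other way. The basal and mesenchymal markers KRT5, KRT14 and TWIST1 measured 13.3 ± 3.85, 13.5 ± 11.7 and 13.9 ± 9.01, and the epithelial EPCAM 405 ± 15.8. The luminal keratin KRT18 measured 16442 ± 1561. By brightest probe set, 22 of 33 luminal and 16 of 22 basal and mesenchymal markers reached the filter, against 13710 of 19775 genes. Counts near that share do not settle the label. The levels differed, with a median PBS percentile of 45.8 for the luminal and 89.1 for the basal and mesenchymal markers. This difference was not tested. Of markers of leukocytes, fibroblasts and endothelial cells, 7 of 13, 4 of 10 and 2 of 10 reached the filter. The leukocyte marker PTPRC stood at 22.5 ± 10.5. The brightest of each kind were CD79A at 240 ± 42.6, COL1A1 at 439 ± 22.8 and ESAM at 430 ± 80.7. The summed signal of the leukocyte markers was 668 to 937 in PBS and 459 to 777 in TCI04. That of the fibroblast markers was 718 to 801 and 568 to 823, and that of the endothelial markers 668 to 829 and 655 to 714. The part of these signals in the results was not tested.

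Promoter sequences (RefSeq, GRCh38.p14, 250 bases before to 50 after a start) were held for 8 of the 9 genes, all but TFF1, with 30 entries in all. They are shown for 4 receptors, a pair whose signals lay in the low range and a pair whose signals lay above it, as the start regions of the receptors described most fully. Any tie between these sequences and the signals was not tested. For each gene the entry with the most CpG dinucleotides is given 5' to 3', with each CpG in capitals.
ESR1 (chr6:151807432-151807731, plus strand): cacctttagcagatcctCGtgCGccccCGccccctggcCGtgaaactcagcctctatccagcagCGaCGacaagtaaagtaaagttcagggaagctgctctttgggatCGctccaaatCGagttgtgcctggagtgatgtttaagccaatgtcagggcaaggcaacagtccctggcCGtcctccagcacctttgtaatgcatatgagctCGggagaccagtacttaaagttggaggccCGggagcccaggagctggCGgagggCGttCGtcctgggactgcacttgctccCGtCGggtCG
PGR (chr11:101129014-101129313, minus strand): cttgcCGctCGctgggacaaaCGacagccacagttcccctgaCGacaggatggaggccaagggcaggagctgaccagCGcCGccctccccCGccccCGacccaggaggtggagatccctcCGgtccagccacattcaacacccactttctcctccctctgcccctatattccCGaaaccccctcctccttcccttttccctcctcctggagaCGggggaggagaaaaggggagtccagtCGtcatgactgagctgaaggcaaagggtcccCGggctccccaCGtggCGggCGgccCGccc
NR3C1 (chr5:143403637-143403936, minus strand): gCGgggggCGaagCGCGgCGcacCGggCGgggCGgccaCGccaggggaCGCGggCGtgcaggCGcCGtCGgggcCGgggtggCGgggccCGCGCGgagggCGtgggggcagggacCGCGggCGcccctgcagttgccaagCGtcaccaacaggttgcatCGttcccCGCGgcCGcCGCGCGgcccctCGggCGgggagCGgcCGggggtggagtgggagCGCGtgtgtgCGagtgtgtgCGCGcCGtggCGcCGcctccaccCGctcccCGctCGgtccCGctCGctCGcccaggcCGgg
ESRRA (chr11:64305274-64305573, plus strand): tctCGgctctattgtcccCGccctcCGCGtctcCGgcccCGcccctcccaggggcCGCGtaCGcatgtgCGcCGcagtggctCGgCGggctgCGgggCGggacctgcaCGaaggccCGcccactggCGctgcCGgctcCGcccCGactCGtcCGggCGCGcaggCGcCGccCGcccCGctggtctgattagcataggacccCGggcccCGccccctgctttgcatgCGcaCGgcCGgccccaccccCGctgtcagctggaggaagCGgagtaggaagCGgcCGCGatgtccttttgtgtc

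These windows held 17 CpGs for ESR1, 17 for PGR, 51 for NR3C1 and 39 for ESRRA, against a median of 14 over 35116 promoter entries. The richest entry of ESR2, whose signals also lay in the low range, held 34, as many as that of FOXA1, while GATA3 reached 36 and SPDEF had 8. Genes with more entries had more chances of a rich one. The arrays measured neither methylation nor binding at these sites. Short motifs were searched on both strands and are a description of letters only. The estrogen response half-site AGGTCA occurred in 3 of the 30 member entries, all of ESR2 and 2 of them overlapping windows, against 13.8% of all entries. The glucocorticoid half-site AGAACA occurred in 2 of 30, 1 of ESR1 and 1 of ESR2, against 14.8%. The GATA motif AGATAA and the forkhead motif TGTTTAC each occurred in 1, in the same NR3C1 entry, against 10.3% and 3.42%. The full estrogen element, GGTCA and TGACC with any 3 bases between, and the element TCAAGGTCA bound by ESRRA occurred in 0 of 30, against 0.057% and 0.353%. TCAAGGTCA contains AGGTCA, the full element contains all but its first base, and 25 of the 30 entries held none of the 6 motifs.

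In PBS, ESR1 and PGR lay in the low range, while 1 of the 3 ERBB2 probe sets lay above it. The 9 ESR1 probe sets had mean PBS signals from 12.9 to 50.3, at mean percentiles of 19.0 to 40.1 among all probe sets, and 2 of the 9 reached the filter. In RNA from many cells, fewer cells with a transcript and less of it per cell cannot be told apart. ESR1 205225_at measured 19.0, 7.35 and 30.1 in PBS replicates 1, 2 and 3, and 29.6, 35.1 and 24.8 in TCI04 replicates 1, 2 and 3. All 6 values fell below the upper quartile of the probe sets of other tissues, and the groups overlapped. ESR1 217163_at had the highest mean over the arrays of the 9, with 94.3, 20.9 and 35.8 in PBS and 18.5, 28.5 and 39.7 in TCI04. Its mean rested on PBS replicate 1, the only array above 40.

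For PGR both probe sets were dim. PGR 228554_at measured 28.4, 14.5 and 32.5 in PBS and 17.8, 25.4 and 31.2 in TCI04. PGR 208305_at measured 4.13, 5.70 and 4.09 in PBS and 21.3, 5.01 and 19.2 in TCI04. Neither of the 2 probe sets reached the filter, and their PBS means of 25.1 and 4.64 lay above 54.3% and 8.51% of the probe sets of other tissues.

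ERBB2, which completes the clinical triad, was not a member and is given for context. Its brightest probe set, 216836_s_at, measured 471, 525 and 400.2 in PBS and 402, 413 and 417 in TCI04, at a mean percentile of 76.6 in PBS. The other ERBB2 probe sets were in the low range, with PBS means of 19.2 and 37.1.

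ESR2 and TFF1 shared the low range. Of the 6 ESR2 probe sets 1 reached the filter, 211120_x_at, at 132, 38.9 and 15.9 in PBS and 32.5, 37.3 and 9.90 in TCI04. PBS replicate 1 stood above all other arrays, and the other PBS values lay among or just above those of TCI04. The other 5 ESR2 probe sets had PBS means of 2.03 to 37.8. TFF1, from its only probe set 205009_at, measured 38.2, 24.2 and 14.6 in PBS and 12.7, 8.18 and 30.9 in TCI04, at a mean PBS percentile of 29.7.

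**Figure D1:**
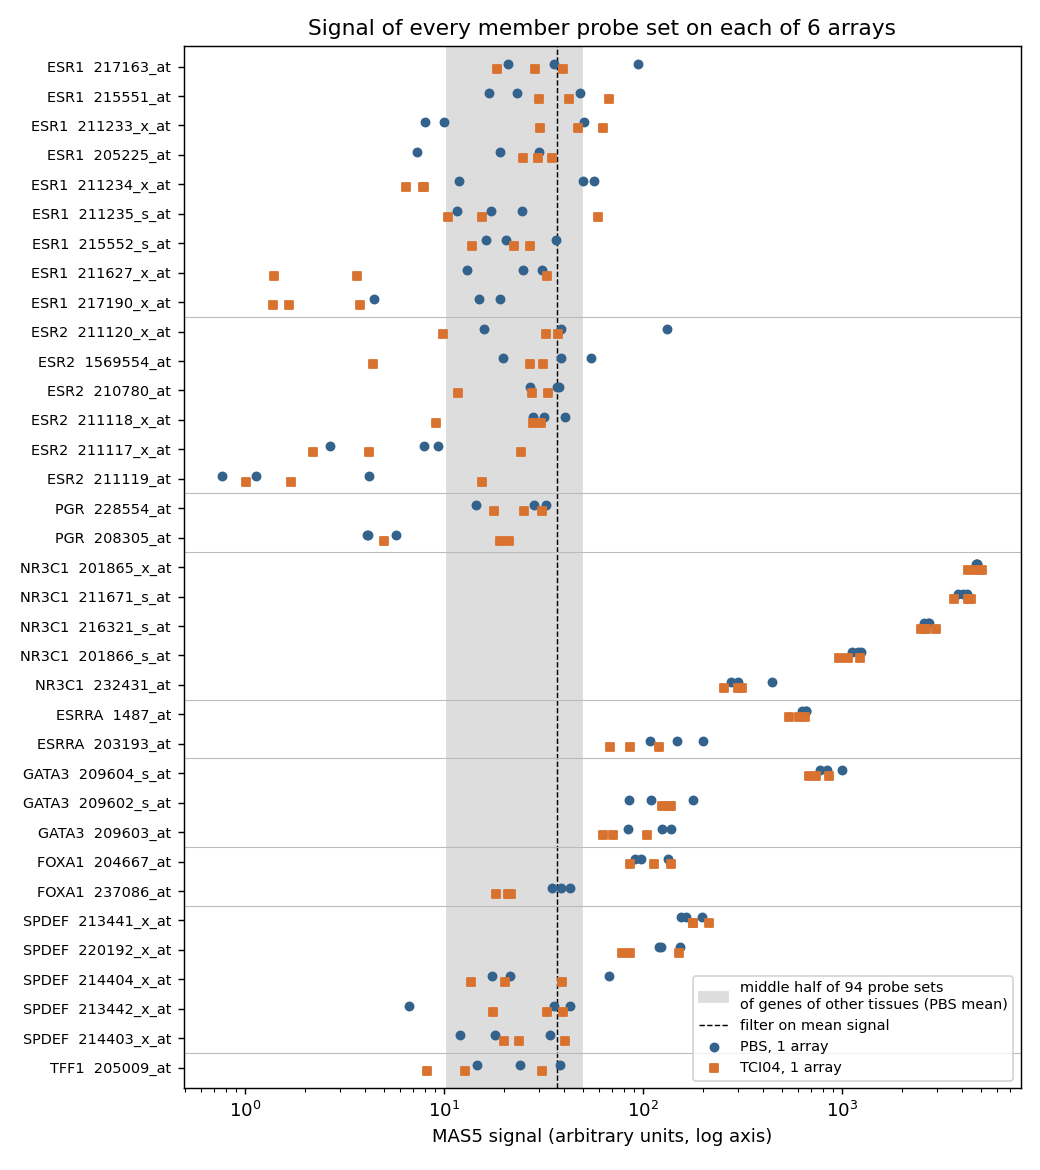
Signal of each of the 35 member probe sets (rows, by gene) on the 3 PBS arrays (blue circles) and 3 TCI04 arrays (orange squares), on a log axis in arbitrary units. The grey band spans the quartiles, 10.3 to 49.4, of 94 probe sets of genes of other tissues, and the dashed line is the filter at 37.0; ESR1, ESR2, PGR and TFF1 lie mostly inside or left of the band, and NR3C1, ESRRA and GATA3 to its right.

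NR3C1 stood clear of the low range on every array. Its 5 probe sets had mean PBS signals of 339.7 to 4759.7, at mean percentiles of 72.9 to 96.2, and the lowest value on any array was 255. NR3C1 201865_x_at measured 4782, 4738 and 4758 in PBS and 4704, 4309 and 5086 in TCI04. NR3C1 211671_s_at measured 4259, 4049.9 and 3825 in PBS and 4462, 3649 and 4288 in TCI04. The values of both probe sets interleaved between the groups, and the coefficient of variation in PBS was 0.462% and 5.37%. NR3C1 216321_s_at ranged from 2576 to 2739 in PBS and from 2487 to 2954 in TCI04, and 201866_s_at from 1123 to 1251 and from 969 to 1236. The dimmest, 232431_at, ranged from 277.5 to 442 in PBS and from 255 to 316 in TCI04.

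Both ESRRA probe sets lay above the upper quartile of the probe sets of other tissues on every array. The brighter, 1487_at, also lay above their 95th percentile of 186, but the PBS mean of 203193_at, 152, did not. ESRRA 1487_at measured 661, 626 and 657 in PBS and 651, 543 and 608 in TCI04. ESRRA 203193_at measured 108, 199.6 and 148 in PBS and 85.6, 68.5 and 120.0 in TCI04. In the second, PBS replicate 1 lay below TCI04 replicate 3, so the groups overlapped by that pair.

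The luminal factors did not lie at one level in PBS. GATA3 209604_s_at measured 777, 842 and 995 in PBS and 864, 742 and 683 in TCI04, at a mean PBS percentile of 83.3. Its other probe sets were dimmer, with 85.2, 178 and 110.1 in PBS and 137, 138 and 125 in TCI04 for 209602_s_at. GATA3 209603_at measured 125, 83.9 and 138 in PBS and 70.8, 62.7 and 105 in TCI04. All 3 reached the filter, and in each the groups overlapped.

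FOXA1 and SPDEF had probe sets on both sides of the filter. FOXA1 204667_at measured 134, 91.2 and 97.2 in PBS and 138, 85.6 and 114 in TCI04, and its PBS mean lay above 88.3% of the probe sets of other tissues. FOXA1 237086_at measured 43.2, 34.7 and 38.9 in PBS and 21.7, 18.1 and 21.1 in TCI04. All 5 SPDEF probe sets carry the suffix _x_at, which marks probes that may bind other transcripts too. Of these, 213441_x_at measured 164, 199 and 155 in PBS and 178, 179 and 215 in TCI04. SPDEF 220192_x_at measured 119.8, 153 and 123 in PBS and 152, 78.1 and 85.7 in TCI04. The other 3 SPDEF probe sets had PBS means of 21.4 to 35.5. The probe sets of these genes thus gave no single account of whether the transcript was present, and with _x_at probes the source of the SPDEF signal cannot be told.

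**Figure D2:**
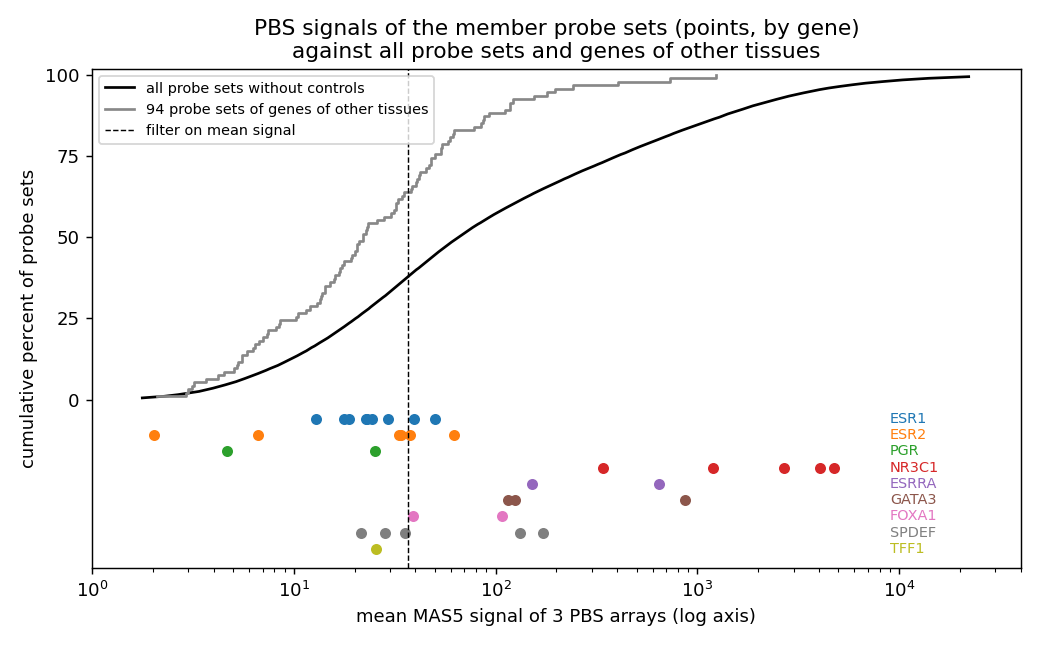
Cumulative percent of probe sets (vertical axis) by mean PBS signal (horizontal log axis) for all 54613 probe sets (black) and 94 of genes of other tissues (grey), with the PBS means of the member probe sets as points below, one row per gene. The 5 NR3C1 points start at 339.7, while every ESR1 point lies at or below 50.3 and both PGR points at or below 25.1.

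The comparison of TCI04 with PBS asked whether the compound shifted this pattern. No member probe set passed the threshold (limma, Benjamini-Hochberg adjusted p under 0.05 over all 32768 tested probe sets). Of the 35 member probe sets 16 were tested, and their adjusted p-values ran from 0.698 to 0.981. Over all tested probe sets a single one passed, that of FOS, lower with TCI04, or 0.00305%. A count of 0 of 16 is thus no result about the members. At an unadjusted p under 0.05, 1 of the 16 was found, a lower one, against 7.11% of all tested probe sets in either direction and 4.9% lower. In the fit without the filter 3 of the 35 had such a p, against 6.65%. Of all tested probe sets at that p, 31.0% were higher with TCI04, which became 48.3% after quantile normalization and 91.4% with arrays centred on their medians. Of the 16, 10 had a lower and 6 a higher mean with TCI04, with a median log2 fold change of -0.12 against -0.03 over all tested probe sets, where 56.2% were lower. With arrays centred on their medians, which moved the median of all tested probe sets by 0.16 on the log2 scale, 7 of the 16 were lower and the median was 0.04. Without TCI04 replicate 3, 12 were lower. Fold changes are on the scale of log2(signal + 10.96), which understates changes of dim probe sets.

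The 3 brightest NR3C1 probe sets had the narrowest intervals of all members. The log2 fold changes of its 5 probe sets were -0.02, 0.03, 0.01, -0.13 and -0.20, in order of falling signal. The 95% interval of the brightest, 201865_x_at, was -0.17 to 0.13, with a standard error of 0.07 (limma, adjusted p = 0.95). With arrays centred on their medians it turned to 0.14, past the upper end of that interval, and 211671_s_at and 216321_s_at gave 0.19 and 0.17. The intervals do not cover the choice of scaling. The intervals of all 5 lay within 2-fold, and the widest, that of 232431_at, ran from -0.59 to 0.20. Over 6 arrays, the genes whose log2 signals ran most like those of NR3C1 201865_x_at were MYL4, SETD1B and MDH1B, with Pearson correlations of 0.992, 0.991 and 0.986. Of 13709 genes, 117 had a correlation above 0.9 with it, and with 6 points such values describe these arrays only.

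The 2 ESRRA probe sets gave unlike estimates, and the difference between them was not tested. ESRRA 203193_at was 152 ± 45.8 in PBS and 91.4 ± 26.2 in TCI04, and its log2 fold change was -0.66 with an interval from -1.25 to -0.07 (limma, unadjusted p = 0.0309, adjusted p = 0.698). This was the member with an unadjusted p under 0.05, and it failed the correction. The brighter 1487_at was 648 ± 19.1 and 601 ± 54.0, a log2 fold change of -0.11 with an interval from -0.33 to 0.11 (limma, adjusted p = 0.799), and it turned to 0.05 with arrays centred on their medians.

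Among the luminal factors, GATA3 209604_s_at was 872 ± 112 in PBS and 763 ± 92.3 in TCI04, and its log2 fold change was -0.19 with an interval from -0.45 to 0.08 (limma, adjusted p = 0.726). It became -0.03 with arrays centred on their medians, -0.09 without PBS replicate 3 and -0.11 without TCI04 replicate 3, with a range of -0.28 to -0.03 over all settings run. Its other probe sets gave 0.15 and -0.49, with adjusted p-values of 0.894 and 0.702. The tested FOXA1 probe set, 204667_at, gave 0.05 with an interval from -0.47 to 0.58. Those of SPDEF gave 0.14 for 213441_x_at, with an interval from -0.23 to 0.50, and -0.34 for 220192_x_at, with an interval from -0.91 to 0.22. Over all settings run these ranged from 0.05 to 0.30 and from -0.61 to -0.18. For 11 of the 16 tested member probe sets the whole interval lay within 2-fold, against 81.3% of all tested probe sets.

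**Figure D3:**
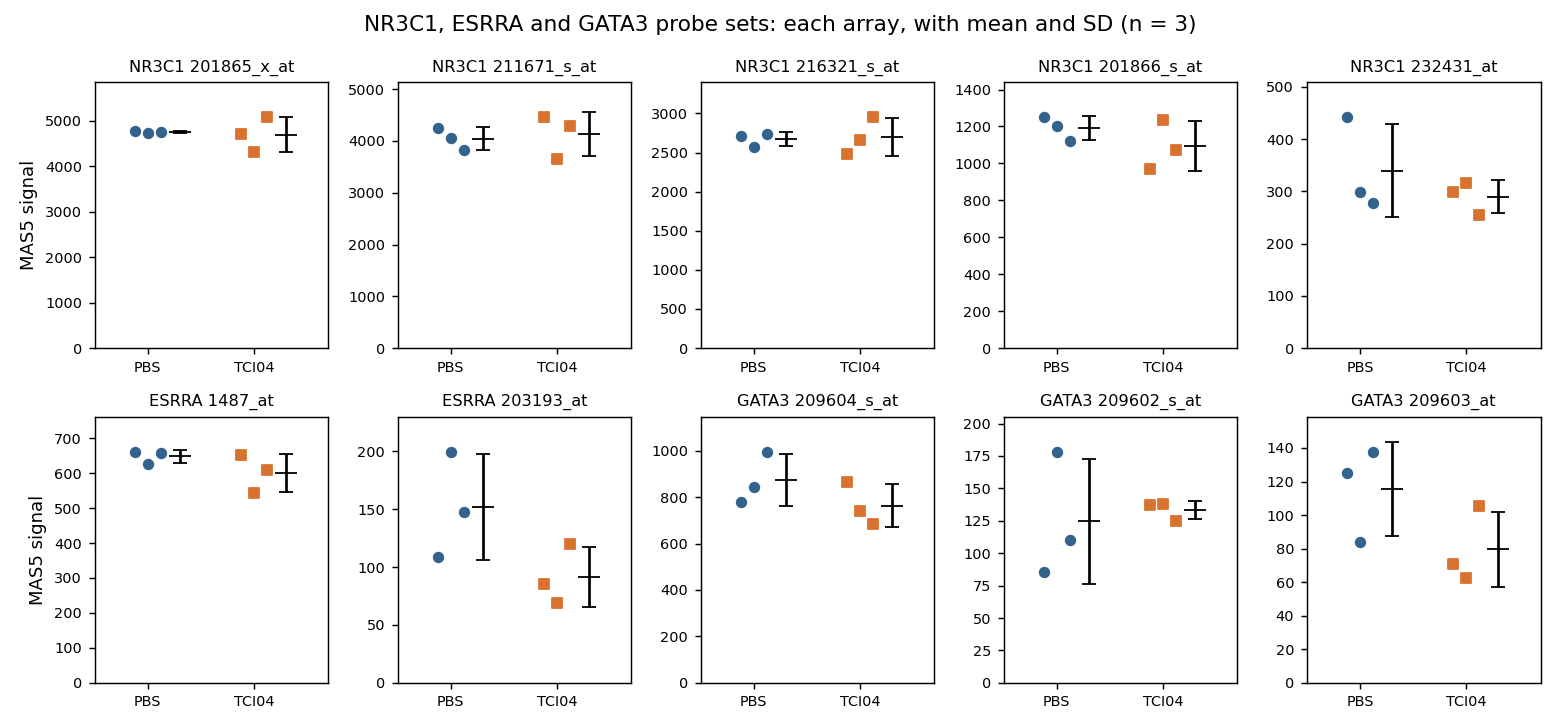
Signals of the 10 NR3C1, ESRRA and GATA3 probe sets on each PBS array (blue circles) and TCI04 array (orange squares), with the mean and SD of 3 arrays in black; each panel has its own linear axis from 0. The groups overlap in all 10 panels, and the widest gap between means relative to the signal is that of ESRRA 203193_at, 152 against 91.4.

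The low-range receptors left wide intervals. The tested ESR1 probe sets, 217163_at and 215551_at, gave log2 fold changes of -0.47 and 0.54, with intervals from -1.54 to 0.60 and from -0.41 to 1.49 (limma, adjusted p = 0.823 and 0.771). They pointed in opposite directions, and without PBS replicate 1 the first turned to 0.01. ESR2 211120_x_at gave -0.71 with an interval from -2.04 to 0.62 (limma, adjusted p = 0.789), and -0.06 without PBS replicate 1, the array on which it was brightest. Each of these 3 intervals reached past 2-fold in 1 direction.

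The 19 member probe sets below the filter were read from the same fit without it and received no call. Of these 10 were lower and 9 higher with TCI04, with a median log2 fold change of -0.12, the same as the -0.12 of all probe sets below the filter. For 2 of the 19 the interval lay within 2-fold, against 28.7% of all below the filter. Their median coefficient of variation in PBS was 46.2%, against 17.8% in the 16 tested members. Of the receptors, PGR 228554_at gave 0.01 and PGR 208305_at 0.68, with intervals from -0.84 to 0.85 and from -0.06 to 1.41. ESR1 205225_at gave 0.52, with an interval from -0.37 to 1.41, and TFF1 gave -0.41, with an interval from -1.36 to 0.54.

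In 3 of the 35 member probe sets every TCI04 array lay below every PBS array, against 8.43% of all probe sets, and in 0 every TCI04 array lay above, against 4.33%. None of the 3 reached the filter, where 8.76% of all probe sets had this pattern. FOXA1 237086_at was 38.9 ± 4.22 in PBS and 20.3 ± 1.89 in TCI04, and its log2 fold change was -0.67 with an interval from -1.42 to 0.08, while the brighter FOXA1 probe set gave 0.05. ESR1 211234_x_at measured 11.9, 49.9 and 56.9 in PBS and 6.44, 7.93 and 7.85 in TCI04, a log2 fold change of -1.31 with an interval from -2.32 to -0.30. ESR1 217190_x_at measured 15.0, 4.45 and 19.1 in PBS and 1.38, 1.67 and 3.80 in TCI04, a log2 fold change of -0.80. Both carry the _x_at suffix, and 4 of the other 7 ESR1 probe sets had higher means with TCI04. The lower TCI04 medians of the arrays move with these values. With arrays centred on their medians, ESR1 211234_x_at gave -1.151 and 217190_x_at -0.636. After quantile normalization they gave -1.168 and -0.696. FOXA1 237086_at ranged from -0.905 to -0.289 over all settings run, so all 3 stayed lower under both scalings. Any part of the medians beyond these scalings was not tested.

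**Figure D4:**
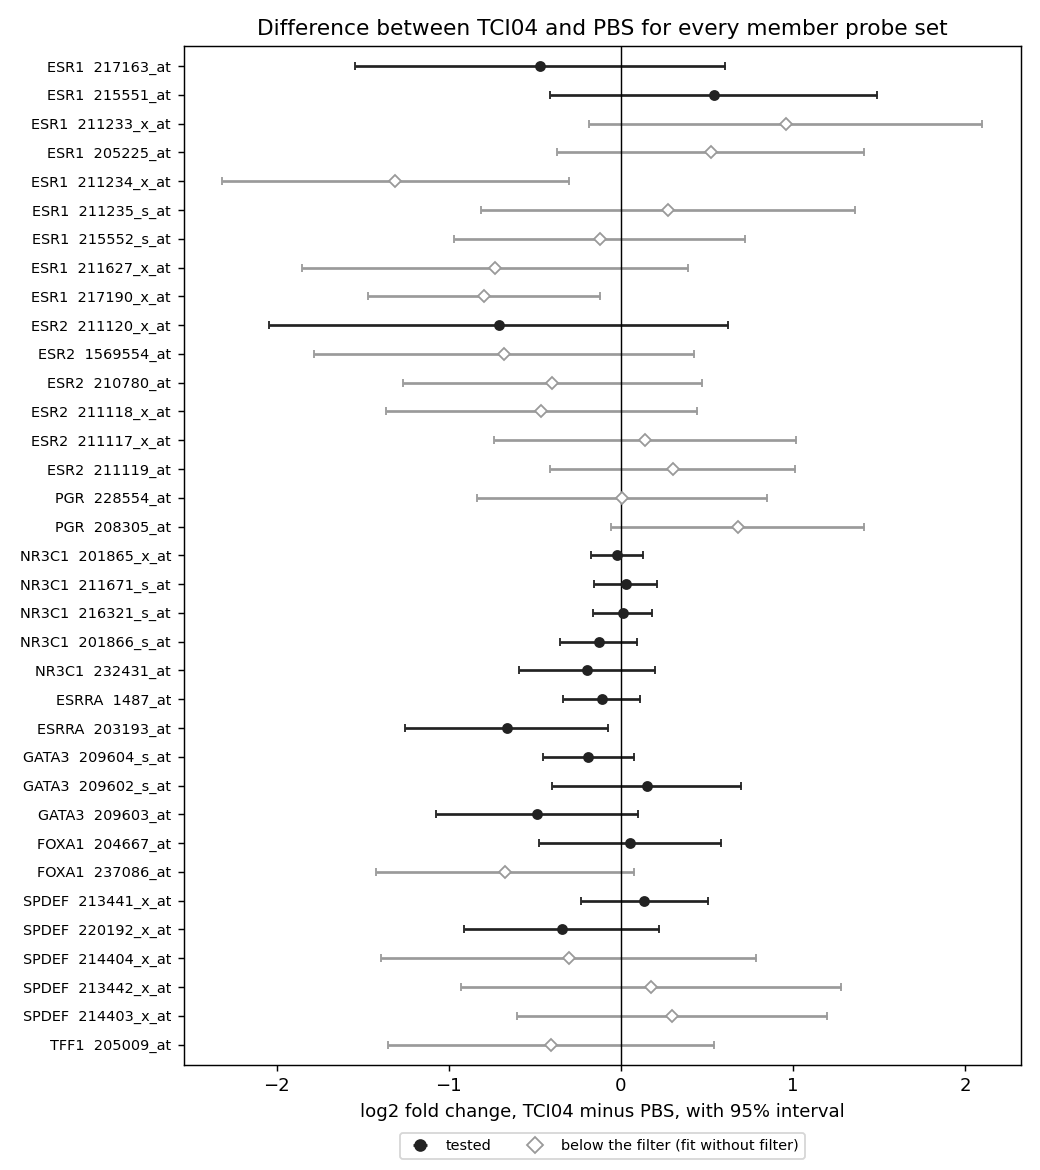
Log2 fold change, TCI04 minus PBS, with its 95% interval for each of the 35 member probe sets; filled circles were tested, and open diamonds are below the filter and were read from a fit without it. The intervals of the 3 brightest NR3C1 probe sets are the narrowest, and those of ESR1 and ESR2 reach past 1 or -1 in most rows.

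Other genes of these pathways were read from lists, each gene by its brightest probe set. No list member passed the threshold in limma, against a single one of 13710 genes, and the smallest adjusted p in any list was 0.698. Counts of higher and lower means are given beside a median log2 fold change of -0.003 over all tested genes, which became 0.157 with arrays centred on their medians. That scaling left 2 of 22 glucocorticoid receptor targets, 4 of 19 estrogen receptor targets, 1 of 19 ESRRA targets, 3 of 19 other nuclear receptors and 2 of 16 basal and mesenchymal markers lower, so their counts below hold for the deposited scaling. Of the tested leukocyte, fibroblast and endothelial markers, 5 of 7, 4 of 4 and 2 of 2 were lower. With that scaling 4 of 7, 2 of 4 and 1 of 2 were lower. Genes of other tissues had 15 of 19 lower, and 13 of 19 with that scaling. Over all tested genes 6948 of 13710 were lower, and 3055 with that scaling. Without TCI04 replicate 3, 13 of 22 glucocorticoid receptor targets, 10 of 19 ESRRA targets, 11 of 19 other nuclear receptors and 6 of 16 basal and mesenchymal markers were lower.

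Among targets of the glucocorticoid receptor, 11 of 22 tested genes had a higher and 11 a lower mean, with a median of 0.0002. Against 976 of 13710 tested genes, 1 of these 22 had an unadjusted p under 0.05 in limma. That gene was DUSP1, a phosphatase of MAP kinases, which averaged 5489 ± 229 in PBS and 4521 ± 119 in TCI04, with a log2 fold change of -0.28 (limma, adjusted p = 0.698). Its other probe sets gave -0.57 and -0.56, but it failed the correction. The brightest targets, the metallothioneins MT2A and MT1X and the annexin ANXA1, gave -0.08, -0.04 and 0.01, and MT2A and MT1X turned to 0.04 and 0.01 after quantile normalization and to 0.08 and 0.12 with arrays centred on their medians, while ANXA1 turned to -0.05 without TCI04 replicate 3. The other ANXA1 probe set gave -0.46. DUSP1 became -0.12 with arrays centred on their medians. The lipase inhibitor ANGPTL4 gave 0.55, and -0.14 in its other probe set.

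Among estrogen receptor targets, 7 of 19 had a higher and 12 a lower mean, with a median of -0.03, which without TCI04 replicate 3 became 10 higher and 9 lower with a median of 0.001. XBP1, a transcription factor of the secretory pathway, averaged 1992 ± 62.6 in PBS and 2303 ± 119 in TCI04. Its log2 fold change was 0.21, beside 0.29 for its other probe set. RET, a receptor tyrosine kinase, averaged 103 ± 13.4 and 60.8 ± 8.94. Its log2 fold change was -0.67, beside -0.69 and -0.001 for its other probe sets. Both were named as the genes of smallest p in the list, a choice that favours groups without overlap. In both the groups did not overlap, as in 13.6% of all tested probe sets, and neither passed (limma, adjusted p = 0.698 each). The brightest, the zinc transporter SLC39A6, the growth factor binding protein IGFBP4 and the cyclin CCND1, gave 0.08, -0.07 and -0.12, the last 2 turning to 0.09 and 0.04 with arrays centred on their medians and to 0.02 and 0.06 without TCI04 replicate 3. Without that array SLC39A6 gave 0.03. With all arrays, the other probe sets of SLC39A6 ran from -0.23 to 0.15, and that of CCND1 gave -0.36.

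The targets of ESRRA had 10 of 19 genes higher and 9 lower, with a median of 0.03. Their brightest members, the ATP synthase subunit ATP5F1A, cytochrome c (CYCS) and the cytochrome oxidase subunit COX6C, gave -0.10, -0.05 and -0.01, and all 3 turned to between 0.06 and 0.15 with arrays centred on their medians, CYCS and COX6C also after quantile normalization. VEGFA, a ligand of vascular growth, was 2303 ± 139 in PBS and 2725 ± 159 in TCI04, and its log2 fold change was 0.24 (limma, adjusted p = 0.698), while its other probe sets ran from -0.45 to 0.06. The respiratory chain subunit NDUFS1 gave 0.15, and its other probe sets ran from -0.31 to 0.15. The other probe set of ATP5F1A gave 0.54, and those of CYCS ran from -0.29 to 0.23.

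Steroid receptors are held by HSP90 and its partners until hormone binds. Of 12 such chaperones tested, 10 had a lower and 2 a higher mean, with a median of -0.11, which was -0.08 after quantile normalization, and 0.05 with 5 lower with arrays centred on their medians. HSP90AA1 gave -0.17, HSP90AB1 -0.18 and the co-chaperone PTGES3 -0.06, and PTGES3 turned to 0.02 after quantile normalization and to 0.10 with arrays centred on their medians. With the deposited scaling, the other probe sets of HSP90AA1 ran from -0.08 to -0.03 and those of HSP90AB1 from -0.38 to -0.18. By brightest probe set, HSP90AA1 became -0.05 after quantile normalization and -0.01 with arrays centred on their medians, and HSP90AB1 -0.14 and -0.02. Without TCI04 replicate 3, 8 of the 12 were lower and the median was -0.05. Coactivators and corepressors had 13 of 18 lower and a median of -0.07, which was 0.09 with 4 lower with arrays centred on their medians and -0.03 with 11 lower without TCI04 replicate 3. PHB2, PRMT1 and TBL1XR1, the brightest, gave -0.09, -0.25 and -0.05, PHB2 and TBL1XR1 turning to 0.07 and 0.11 with arrays centred on their medians, while SAFB gave -0.22 and KMT2C 0.12. PRMT1 measured 9359, 9437 and 5774 in TCI04 replicates 1, 2 and 3. Without replicate 3 it gave -0.01, SAFB -0.10 and PHB2 -0.04. With all arrays, the other PRMT1 probe set gave -0.035, and the other probe sets of SAFB ran from -0.51 to -0.05. Those of KMT2C ran from -0.54 to 0.31 and those of TBL1XR1 from -0.24 to 0.14.

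The other nuclear receptors had 9 of 19 higher and 10 lower, with a median of -0.01. The orphan receptor NR2F1 measured 1996 ± 319 in PBS and 2041 ± 369.6 in TCI04, and its log2 fold change was 0.03, which turned to -0.11 without TCI04 replicate 3. PPARD and the clock receptor NR1D2 gave -0.01 and 0.21. The other NR1D2 probe set gave -0.25, and the others of PPARD ran from -0.41 to 0.20. PPARD turned to 0.15 with arrays centred on their medians and to 0.003 without TCI04 replicate 3. The mineralocorticoid receptor NR3C2, the nearest relative of NR3C1, gave 0.25 with an interval from -0.02 to 0.52 (limma, adjusted p = 0.698), at 389, 430.4 and 346 in PBS and 469, 422 and 495 in TCI04. A single TCI04 array, replicate 2, lay within the PBS range.

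Luminal markers had 7 of 22 higher and 15 lower, with a median of -0.07, which was -0.01 with 12 lower after quantile normalization, 0.09 with 8 lower with arrays centred on their medians, and -0.02 with 12 lower without TCI04 replicate 3. The keratins KRT18, KRT7 and KRT8, the brightest of them, gave -0.08, -0.27 and -0.53, none of them passing the correction, and KRT18 turned to 0.08 with arrays centred on their medians. KRT8 measured 2227, 2313 and 996 in TCI04 replicates 1, 2 and 3, and without replicate 3, the array of high ACTB ratio, KRT8 gave -0.14 and KRT7 -0.06. Basal and mesenchymal markers had 8 of 16 higher and 8 lower, with a median of 0.01. VIM, CAV1 and AXL gave -0.13, -0.03 and 0.03, and VIM and CAV1 turned to 0.03 and 0.13 with arrays centred on their medians, CAV1 also to 0.04 after quantile normalization and 0.01 without TCI04 replicate 3. FN1, the matrix protein fibronectin, gave -0.27, and the membrane protein CAV2 0.13. The other probe sets of VIM and AXL gave 0.17 and -0.20, and those of FN1 ran from -0.44 to 0.02. ERBB2 216836_s_at gave -0.17, with an interval from -0.44 to 0.10 (limma, adjusted p = 0.754), and -0.01 with arrays centred on their medians. The other ERBB2 probe sets, below the filter, gave 0.70 and 0.41.

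**Figure D5:**
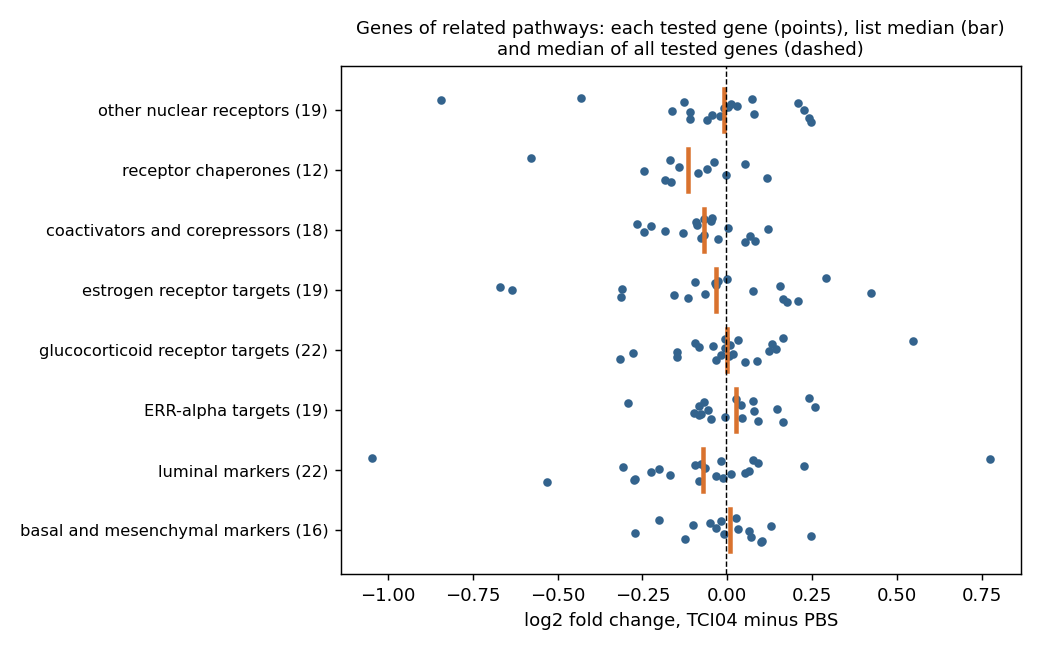
Log2 fold change, TCI04 minus PBS, of each tested gene (points) in 8 lists, with the number tested in parentheses, the list's median as an orange bar and the median of all tested genes, -0.003, as a dashed line. The medians of all 8 lists lie between -0.11 and 0.03.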

How the data were processed

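The deposited values are intensities, MAS5 signals of 54675 probe sets on a linear scale. MAS5 is named in the submitters' processing notes, with no version in the sources used here. Each array's mean, after trimming 2% at both ends, was 500.1, so the deposited intensities share 1 scale. Probe sets were named from the platform annotation where it gave 1 symbol.

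The test used log2(signal + 10.96), where 10.96 is the 20th percentile of the table. The 62 control probe sets and those with a mean below the 40th percentile were left out. The other 32768 were tested with limma 3.58.1 (R 4.3.3), TCI04 minus PBS, two-sided, using eBayes with a trend and Benjamini-Hochberg adjustment at 0.05. The steps were tested on simulated data. The number of arrays limits the precision.

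The members and lists were chosen with earlier results of these data known. All members are described. With no list gene past the threshold (up to 4 would have been named), each list's 3 brightest genes and 2 of smallest p were named, with ERBB2. Marker lists of other cells and tissues are given as counts and levels.

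The alternatives tried were 2 other scalings (quantile, median), 2 other offsets (1 and 63.6), other filters (none, 60th percentile), other variance models (no trend, robust, array weights), a block on replicate number, gene means over probe sets, and leaving out single arrays. List counts and list genes under other scalings and without TCI04 replicate 3 were added after seeing the data.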

Additional observations from a re-analysis of the deposited data

How the results depend on the processing

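The count of member probe sets past the threshold was 0 in all 16 alternatives, and no setting gave a higher probe set in the table. The count of lower probe sets was 1, and 0 with median centring and with eBayes without trend, while leaving out 1 array at a time gave 0 to 1. Deviations of same-numbered arrays correlated at 0.007, 0.068 and 0.055, and those of differently numbered arrays at -0.063 to 0.006. All were small, and they cannot tell whether the replicate numbers pair the arrays. With the number as a block, 1 lower probe set and 0 members passed. Of the 16 tested members 7 kept their sign throughout and 9 turned, none of them called. With median centring NR3C1 201865_x_at gave 0.138, NR3C1 201866_s_at 0.030 and ESRRA 1487_at 0.048. NR3C1 216321_s_at gave -0.022 after quantile normalization and -0.026 with array weights. With single arrays left out, the values ranged from -0.0800 to 0.0393 for NR3C1 201865_x_at, from -0.0305 to 0.114 for 211671_s_at, from -0.0570 to 0.0667 for 216321_s_at and from -0.322 to 0.00409 for 232431_at. They ranged from -0.850 to 0.0125 for ESR1 217163_at, from -0.0688 to 0.420 for GATA3 209602_s_at and from -0.0916 to 0.219 for FOXA1 204667_at. The mean of all probe sets gave -0.309 for FOXA1 and -0.0083 for SPDEF. Low signal limits what can be said of ESR1, ESR2, PGR, TFF1 and 3 of the 5 SPDEF probe sets. Which of the scalings is nearer the truth was not tested.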
